A study of Saccharomyces cerevisiae with 18 samples.

Results

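The genes described here are 9 late sporulation genes of budding yeast, *CDA1*, *CDA2*, *DIT1*, *DIT2*, *SSP2*, *LDS1*, *SPS100*, *SPR3* and *SPS4*, out of 7126 genes in the count table. They were found by gene name, and the list was drawn up because *CDA1*, *SSP2* and *LDS1* were seen to differ between the strains of this study. The differences between strains are therefore given below as descriptions without a test, and for these 9 genes tests were run on the response to LiCl within a strain and, for genes other than those 3, on how that response differed between strains. The LiCl and control libraries of these tests are the ones that also enter the differences between strains, so for *CDA1*, *SSP2* and *LDS1* the tests are not independent of the choice. The other genes were listed with earlier results of these data known, so their tests are not known to be independent of it either.

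The study asked how the phosphorylation state of Hcm1, a forkhead transcription factor of the cell cycle, bears on growth in LiCl, a salt that stresses cells through lithium ions. Polyadenylated RNA was sequenced in 18 libraries, 3 biological replicates for every combination of 3 strains and 2 media. All strains were haploid *MATa* cells of the BY4741 background with *his3*, *ura3*, *leu2* and *lys2* deletions, a GFP gene on the *TEF* promoter on chromosome VI, and a genomic *HCM1* tagged with HA behind the *GAL1* promoter, which dextrose in the medium shut off. The Hcm1 that remained was tagged with V5 and came from a centromeric *URA3* plasmid with the *HCM1* promoter. The plasmid carried WT *HCM1*, *hcm1-3N*, in which alanines replace phosphorylation sites of the degradation signal so that the protein is stabilized, or *hcm1-8E*, in which pairs of glutamic acids mimic phosphates at the CDK sites of the activation domain. Cultures grew in synthetic medium lacking uracil, either without further salt (control) or with 150 mM LiCl, and were sampled in log phase at 40 hours, after a dilution. They were unsynchronized bulk cultures, so a change in the level per cell and a change in the share of cells with the transcript cannot be told apart.

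Spores of budding yeast form inside a diploid cell that has gone through meiosis, and each spore is enclosed in a wall of several layers, with mannan and beta-glucan inside, then chitosan, then a dityrosine coat. The genes that build the outer layers are switched on late, chiefly by the activator Ndt80, which binds a sequence called the middle sporulation element that the repressor Sum1 occupies in vegetative cells. Haploid cells do not sporulate, and the levels reported here are those of genes that are kept low in such cells.

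The cultures carried the expression of *MATa* haploids. The summed level of 6 *MATa* markers was 6980 to 11890 TPM (a measure of level corrected for gene length and library total), against 22.7 to 69.6 TPM for 4 *MATalpha* markers, 270 to 350 TPM for 5 haploid markers and 14.3 to 27.5 TPM for the meiotic regulators *IME1*, *IME2* and *NDT80* together. No listed marker was at 0 in a whole group, and *NDT80* itself had 62 to 142 counts a library. *HCM1* had group means from 147 to 399 CPM (counts relative to the library total, scaled by TMM) and the plasmid marker *URA3* from 545 to 1319 CPM, and neither distinguishes the plasmid alleles, whose substitutions gene counts do not show. In control medium *HCM1* was at 299, 244 and 238 CPM in WT, *hcm1-3N* and *hcm1-8E*, and *URA3* at 788, 564 and 575 CPM. In LiCl *HCM1* was at 399, 251 and 147 CPM in these strains, and *URA3* at 1319, 954 and 545 CPM. The strains thus differed in these levels too, and their part in the strain differences below was not tested. The libraries held 18816441 to 21851012 counts, and 3 counts, taken as the floor of detection, were 0.137 to 0.159 CPM. Libraries numbered 1 stood apart from the others in several genes, *SPS100* among them, and values without all 6 of them are given where a result rests on them.

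To show what precedes *CDA1*, *SSP2*, *LDS1* and *SPR3*, the 300 bases before the start codon were read from the RefSeq genome of build R64, written from 5′ to 3′ toward the gene. The middle sporulation element was searched as GNCACAAAA, GNCACAAAT, GNCGCAAAA and GNCGCAAAT, and the core of the forkhead site as TAAACAA, all on both strands. Capitals mark forkhead cores in the *SSP2* sequence and middle sporulation elements in the others.
CDA1 (chrXII:745320-745619, plus strand): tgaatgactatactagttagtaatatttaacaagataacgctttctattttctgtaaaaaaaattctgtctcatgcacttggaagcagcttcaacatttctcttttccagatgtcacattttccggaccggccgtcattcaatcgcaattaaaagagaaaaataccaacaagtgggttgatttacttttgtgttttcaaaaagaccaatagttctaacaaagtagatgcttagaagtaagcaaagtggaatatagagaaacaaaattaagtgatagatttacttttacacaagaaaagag
SSP2 (chrXV:789858-790157, minus strand): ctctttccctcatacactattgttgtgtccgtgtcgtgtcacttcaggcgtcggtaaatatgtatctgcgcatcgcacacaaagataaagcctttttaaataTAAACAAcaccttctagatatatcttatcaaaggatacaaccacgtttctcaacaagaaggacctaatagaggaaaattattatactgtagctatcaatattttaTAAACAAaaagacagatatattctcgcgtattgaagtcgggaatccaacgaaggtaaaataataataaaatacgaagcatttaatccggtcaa
LDS1 (chrI:119542-119841, minus strand): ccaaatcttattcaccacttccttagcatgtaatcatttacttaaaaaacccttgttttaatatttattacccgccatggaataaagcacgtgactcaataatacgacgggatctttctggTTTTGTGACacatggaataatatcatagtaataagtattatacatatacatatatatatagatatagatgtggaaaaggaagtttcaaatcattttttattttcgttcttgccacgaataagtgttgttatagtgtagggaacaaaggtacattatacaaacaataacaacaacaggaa
SPR3 (chrVII:607263-607562, plus strand): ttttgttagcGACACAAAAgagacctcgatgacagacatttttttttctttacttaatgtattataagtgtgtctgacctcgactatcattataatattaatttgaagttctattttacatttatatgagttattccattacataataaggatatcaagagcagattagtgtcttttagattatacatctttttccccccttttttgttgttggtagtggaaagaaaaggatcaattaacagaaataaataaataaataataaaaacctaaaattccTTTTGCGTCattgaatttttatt

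The *LDS1* sequence held 1 middle sporulation element, written on the opposite strand at 179 to 171 bases before the start codon. The *SPR3* sequence held 2, at 290 to 282 bases on the gene's strand and at 23 to 15 bases on the other. *CDA2* and *SPS4* had 1 each, at 167 to 159 and at 192 to 184 bases, so 4 of the 9 genes had a match, against 320 (5.33%) of the 6001 windows of protein-coding genes. *CDA1* and *SSP2* had no match of these letters in this window. The forkhead core was present in *SSP2*, at 198 to 192 and at 93 to 87 bases, and once each in *CDA2* and *DIT1*, that is in 3 of 9 genes against 13.2% of all windows. The letters GGCGGC, the core of the early meiotic element URS1, were in none of the 9 and in 5.2% of all windows. Such matches describe the sequence only, and none of the 9 genes is among the 95 Hcm1 targets listed by the study.

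All 9 genes were weakly expressed. By median TPM over the 18 libraries, *CDA1* stood highest at 5.50, followed by *DIT1* at 5.38, *SPS100* at 4.15, *SPR3* at 2.05, *SSP2* at 1.33, *DIT2* at 1.08, *SPS4* at 0.945, *LDS1* at 0.435 and *CDA2* at 0.137. *CDA1* lay at percentile 21.0 of the genes with a TPM value and *CDA2* at 2.09. The ranges of neighbours in this order overlapped over the 18 libraries, although *CDA2* had the lowest TPM of the 9 in each of the 18. Of the 9 genes, 8 passed the expression filter, and 6239 genes were tested in all. For *LDS1* 12 of the 18 libraries exceeded the filter's 0.461 CPM. Libraries of WT and *hcm1-8E* were among them, but *hcm1-3N* was the only strain in which every library of both media did.

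**Figure D1:**
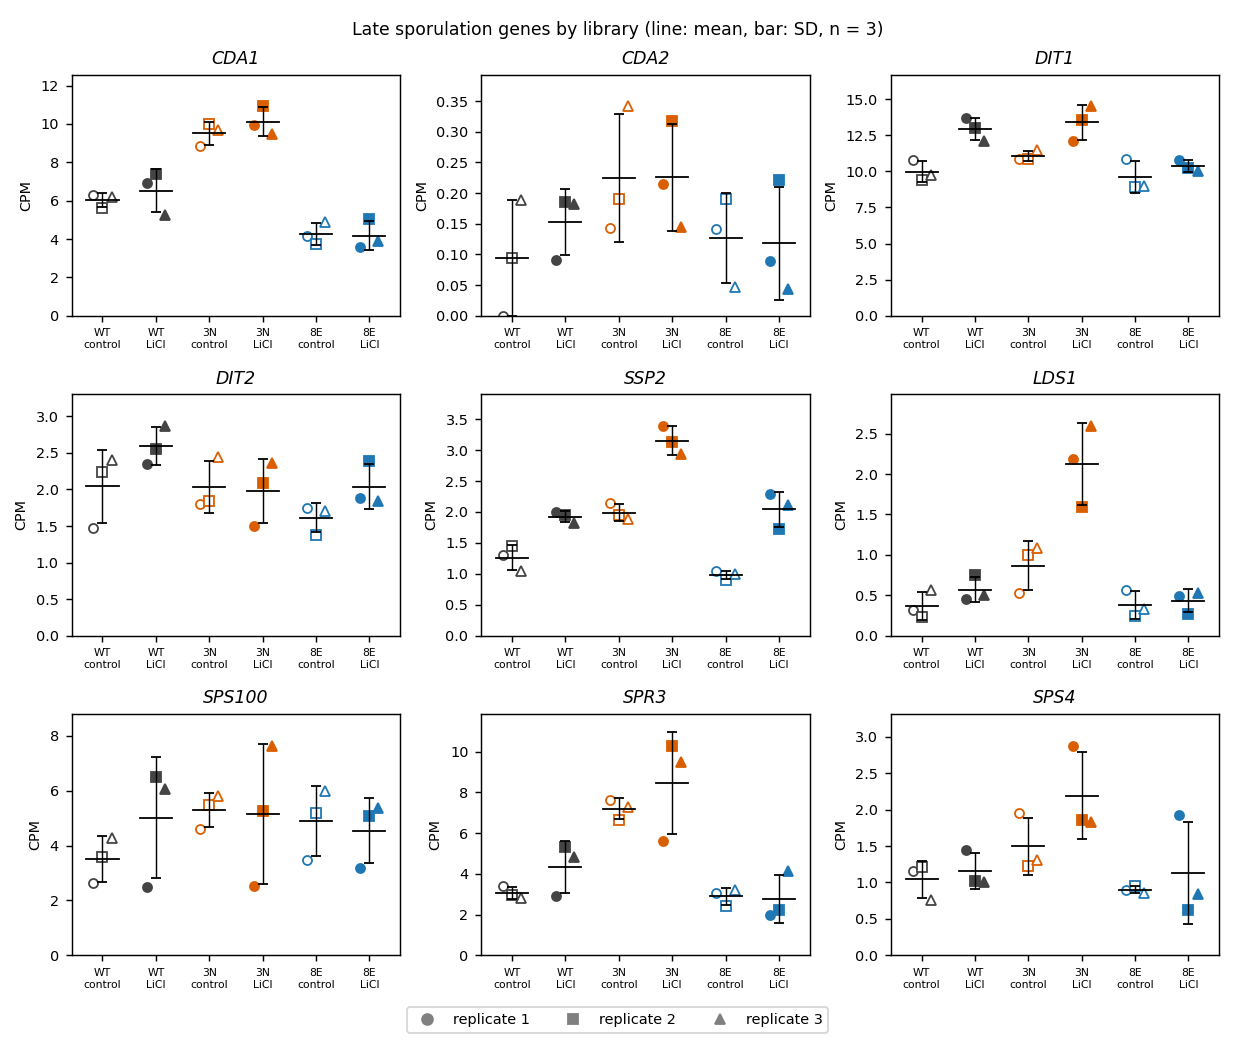
Level of each of the 9 late sporulation genes in CPM (vertical axes, each from 0) in the 18 libraries, by strain and medium. Points are libraries (open: control, filled: LiCl, shapes: replicate number), lines are means and bars SD, n = 3. *CDA1* runs from 3.58 CPM in an *hcm1-8E* library to 10.9 CPM in an *hcm1-3N* library, and *CDA2* does not exceed 0.342 CPM.

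*CDA1* (YLR307W, chromosome XII, 745620 to 746525, plus strand) encodes a chitin deacetylase, which makes the chitosan of the spore wall. In control medium the WT libraries had 141, 120 and 131 counts, *hcm1-3N* had 186, 211 and 170, and *hcm1-8E* had 88, 79 and 103. In LiCl the counts were 153, 159 and 115 in WT, 232, 241 and 197 in *hcm1-3N*, and 80, 114 and 89 in *hcm1-8E*. The order was the same in both media, *hcm1-3N* above WT above *hcm1-8E*, and in CPM no library of one strain reached into the range of another. In LiCl the margin between WT and *hcm1-8E* was narrow, 5.24 against 5.04 CPM. In TPM they overlapped in LiCl, with WT replicate 3 at 4.60 and *hcm1-8E* replicate 2 at 4.71. In control medium the WT level was 6.03 ± 0.374 CPM (SD, n = 3), the *hcm1-3N* level 9.51 ± 0.601 and the *hcm1-8E* level 4.26 ± 0.561 CPM, and in LiCl they were 6.52 ± 1.13, 10.1 ± 0.745 and 4.18 ± 0.766 CPM. The log2 fold change of *hcm1-3N* over WT was 0.66 (SE 0.15) in control and 0.63 (SE 0.15) in LiCl, and that of *hcm1-8E* over WT was -0.50 (SE 0.16) and -0.64 (SE 0.16). The *CDA1* level of *hcm1-3N* was thus 2.23-fold that of *hcm1-8E* in control medium and 2.42-fold that of *hcm1-8E* in LiCl.

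Its paralog *CDA2* (YLR308W, 747937 to 748875 on the same strand) begins 1411 bases further along and shares 63.07% of aligned coding bases with it. In control medium *CDA2* had 0, 2 and 4 counts in WT, 3, 4 and 6 in *hcm1-3N* and 3, 4 and 1 in *hcm1-8E*. In LiCl it had 2, 4 and 4 counts in WT, 5, 7 and 3 in *hcm1-3N* and 2, 5 and 1 in *hcm1-8E*. The groups overlapped throughout. Of the 18 libraries 9 were at or under 3 counts, although no group had all its libraries there, and the gene failed the expression filter. Fitted without the filter, its log2 fold change of LiCl over control was 0.64 in WT, 0.03 with *hcm1-3N* and -0.12 with *hcm1-8E* (adjusted p = 0.576, 0.981 and 0.932, edgeR), and a difference between media was not detectable at this depth.

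*SSP2* (YOR242C, chromosome XV, 788742 to 789857, minus strand) encodes an activator of the spore wall kinase Smk1. In control medium it had 29, 31 and 22 counts in WT, 45, 41 and 33 in *hcm1-3N* and 22, 19 and 21 in *hcm1-8E*. In LiCl it had 44, 42 and 40 counts in WT, 79, 69 and 61 in *hcm1-3N* and 51, 39 and 48 in *hcm1-8E*. The *hcm1-3N* libraries lay above all WT and *hcm1-8E* libraries of the same medium, and WT and *hcm1-8E* overlapped in both media. In control medium the level was 1.26 ± 0.207 CPM in WT, 1.99 ± 0.134 with *hcm1-3N* and 0.979 ± 0.0674 with *hcm1-8E*, and in LiCl it was 1.92 ± 0.0883, 3.15 ± 0.231 and 2.04 ± 0.286 CPM. The *hcm1-3N* level in control medium thus overlapped that of WT in LiCl. On the log2 scale *hcm1-3N* exceeded WT by 0.65 (SE 0.16) in control and 0.71 (SE 0.15) in LiCl, and exceeded *hcm1-8E* by 1.02 (SE 0.16) and 0.63 (SE 0.15).

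*LDS1* (YAL018C, chromosome I, 118564 to 119541, minus strand) encodes a protein of the lipid droplets that gather around forming spores and contribute to the wall. In control medium it had 7, 5 and 12 counts in WT, 11, 21 and 19 in *hcm1-3N* and 12, 5 and 7 in *hcm1-8E*. In LiCl it had 10, 16 and 11 counts in WT, 51, 35 and 54 in *hcm1-3N* and 11, 6 and 12 in *hcm1-8E*. In LiCl the *hcm1-3N* libraries lay apart from the other strains, whereas in control medium replicate 1 of *hcm1-3N*, at 0.523 CPM, was within their range. The level in LiCl was 0.566 ± 0.156 CPM in WT, 2.13 ± 0.507 with *hcm1-3N* and 0.429 ± 0.142 with *hcm1-8E*, and the log2 fold change of *hcm1-3N* was 1.90 (SE 0.36) over WT and 2.29 (SE 0.37) over *hcm1-8E*. In control medium it was 0.371 ± 0.174 CPM in WT, 0.867 ± 0.301 with *hcm1-3N* and 0.379 ± 0.169 with *hcm1-8E*, with log2 fold changes of 1.21 (SE 0.42) and 1.17 (SE 0.42) for *hcm1-3N*. The latter was 1.85 without the libraries numbered 1, and the difference of *hcm1-8E* from WT in control medium went from 0.03 (SE 0.46) to -0.49. No library was at the floor, but at 5 to 21 counts in control medium and in WT and *hcm1-8E* in LiCl the counting error of a single library is large.

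*SPR3* (YGR059W, chromosome VII, 607563 to 609101, plus strand) encodes a septin made in sporulating cells, where septins line the membrane that will enclose the spore. Without salt it had 76, 63 and 60 counts in WT, 161, 140 and 128 in *hcm1-3N* and 65, 51 and 68 in *hcm1-8E*. In LiCl it had 64, 114 and 106 counts in WT, 131, 227 and 197 in *hcm1-3N* and 44, 50 and 94 in *hcm1-8E*. *SPR3* had its highest libraries in *hcm1-3N* in both media, and those of WT and *hcm1-8E* overlapped. In control medium its level was 3.06 ± 0.300 CPM in WT, 7.19 ± 0.515 with *hcm1-3N* and 2.91 ± 0.417 with *hcm1-8E*, and in LiCl 4.34 ± 1.28, 8.47 ± 2.49 and 2.77 ± 1.19 CPM. The log2 fold change of *hcm1-3N* over WT was 1.23 (SE 0.29) in control and 0.96 (SE 0.28) in LiCl.

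*SPS4* (YOR313C, chromosome XV, 901858 to 902874, minus strand), is a gene induced in sporulation. In control medium it had 26, 26 and 16 counts in WT, 41, 26 and 23 in *hcm1-3N* and 19, 20 and 18 in *hcm1-8E*. In LiCl it had 32, 22 and 22 counts in WT, 67, 41 and 38 in *hcm1-3N* and 43, 14 and 19 in *hcm1-8E*. In CPM its *hcm1-3N* libraries were above those of WT in both media, by 0.52 (SE 0.36) and 0.92 (SE 0.35) on the log2 scale, the former by a narrow margin, 1.23 against 1.21 CPM. In TPM they overlapped in control medium, with WT replicate 2 at 0.978 and *hcm1-3N* replicate 2 at 0.946. In LiCl replicate 1 of *hcm1-8E*, at 1.93 CPM, lay within the *hcm1-3N* range.

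*DIT1* (YDR403W, chromosome IV, 1274602 to 1276212, plus strand) and *DIT2* (YDR402C, 1272234 to 1273703, minus strand) encode the enzymes that make the dityrosine precursor of the outermost coat, and they are divergent genes with 898 bases between them. In control medium *DIT1* had 241, 201 and 206 counts in WT, 229, 229 and 201 in *hcm1-3N* and 230, 187 and 190 in *hcm1-8E*. In LiCl it had 302, 280 and 266 counts in WT, 282, 299 and 302 in *hcm1-3N* and 241, 232 and 228 in *hcm1-8E*. The strains were close for *DIT1*, with log2 fold changes over WT of 0.15 for *hcm1-3N* and -0.05 for *hcm1-8E* in control medium, and of 0.05 and -0.32 in LiCl, where the *hcm1-8E* libraries lay below those of both other strains. *DIT2* ranged from 29 to 63 counts, and its strains overlapped in every pairing but *hcm1-3N* over *hcm1-8E* in control medium (log2 fold change 0.33, SE 0.23).

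*SPS100* (YHR139C, chromosome VIII, 378219 to 379199, minus strand), needed for the spore wall to mature, ranged from 55 to 159 counts. Replicate 1 was its lowest library in all 6 groups, with 55 to 97 counts against 77 to 159 in the others, and the difference between replicates in LiCl was larger than any difference between strains there. The antisense transcript *SUT169* overlaps most of the gene (378254 to 379237, plus strand), and the strand setting of the counting is not given in the sources used here, so its reads cannot be told apart from those of *SPS100*. No such overlap was annotated for the other 8 genes, and none of the 9 had a near-identical copy.

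Set side by side in CPM, 6 of the 8 genes had all *hcm1-3N* libraries above all WT libraries in control medium, *CDA1*, *DIT1*, *SSP2*, *SPS100*, *SPR3* and *SPS4*. The margin of *DIT1* was 10.85 against 10.77 CPM, and in TPM *DIT1* and *SPS4* overlapped in this pairing. Over all tested genes 35.4% did not overlap in that pairing, 17.4% with *hcm1-3N* higher. In LiCl 5 of the 8 did, *CDA1*, *SSP2*, *LDS1*, *SPR3* and *SPS4* (11.2% of all genes not overlapping, 4.98% higher). Of *hcm1-8E* against WT, *CDA1* was lower without overlap in control medium (25.3% of all genes, 11.7% lower), and *CDA1* and *DIT1* were in LiCl (7.37% of all genes, 3.13% lower). In TPM the *CDA1* libraries of *hcm1-8E* and WT overlapped in LiCl. The *hcm1-3N* libraries exceeded those of *hcm1-8E* without overlap for 5 of 8 genes in control medium, *CDA1*, *DIT2*, *SSP2*, *SPR3* and *SPS4* (26.7% of all genes, 12.6% higher), and for 5 in LiCl, *CDA1*, *DIT1*, *SSP2*, *LDS1* and *SPR3* (13.1%, 5.63% higher). These counts include the contrasts that led to the list, and nothing is read from them. The median log2 fold change of the 8 genes was 0.63 for *hcm1-3N* over WT in control medium and 0.67 in LiCl, and -0.14 and -0.33 for *hcm1-8E* over WT, against values between -0.01 and 0.02 over all tested genes. Over the 5 genes other than *CDA1*, *SSP2* and *LDS1*, the median for *hcm1-3N* over WT was 0.52 in control medium and 0.05 in LiCl. Both mutants share the WT libraries as reference within a medium.

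**Figure D2:**
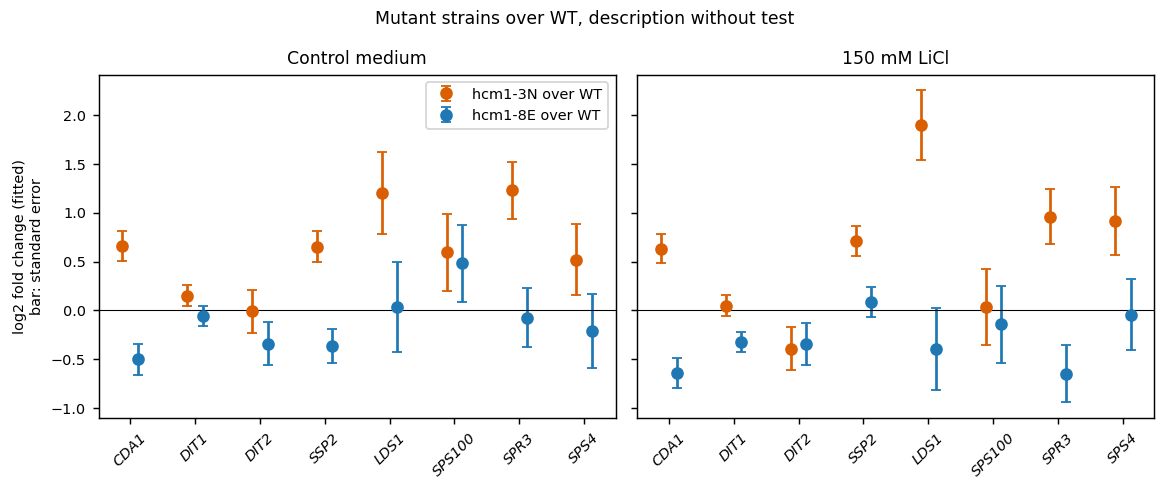
Fitted log2 fold change of *hcm1-3N* over WT and of *hcm1-8E* over WT for the 8 genes that passed the filter, in control medium (left) and in LiCl (right). Points are estimates and bars standard errors from the model of all 18 libraries. *LDS1* reaches 1.90 for *hcm1-3N* in LiCl, and *CDA1* lies at -0.50 and -0.64 for *hcm1-8E*.

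The response to LiCl could be tested. Over all tested genes 45.3%, 31.3% and 44.5% did not overlap between the media in WT, *hcm1-3N* and *hcm1-8E*. The shares higher in LiCl without overlap were 23.2%, 15.9% and 23.8%. *SSP2* rose in LiCl in every strain, with no overlap between the media. Its log2 fold change was 0.61 (SE 0.16, adjusted p = 0.0140 by edgeR's quasi-likelihood test) in WT, 0.66 (SE 0.15, adjusted p = 0.0147) in *hcm1-3N* and 1.05 (SE 0.16, adjusted p = 0.000499) in *hcm1-8E*, and it was higher in 3 of 3 same-numbered pairs in each strain. The level thus went up 1.52-fold, 1.58-fold and 2.08-fold. The response in *hcm1-8E* exceeded that in WT by 0.45 (SE 0.23) and the response in *hcm1-3N* minus that in *hcm1-8E* was -0.39 (SE 0.22), values given without a test because *SSP2* was chosen on the strains. The call in *hcm1-8E* held without any 1 library. With edgeR the call in WT was lost without control replicate 3 (0.48, adjusted p = 0.0981), without LiCl replicate 1 (0.55, adjusted p = 0.0593) and without all libraries numbered 1 (0.57, adjusted p = 0.0709). In *hcm1-3N* it was lost in edgeR's fit without control replicate 2 or 3 or LiCl replicate 1 or 2, with log2 fold changes of 0.59 to 0.67 and adjusted p from 0.0521 to 0.0752.

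*LDS1* rose in LiCl in *hcm1-3N*, by 1.30 on the log2 scale (SE 0.35, adjusted p = 0.0304, edgeR), or 2.46-fold, with no overlap. The *hcm1-3N* LiCl libraries, in which it was highest, also enter the strain differences on which *LDS1* was chosen, so this p is not independent of the choice. In WT the log2 fold change was 0.60 (SE 0.44, adjusted p = 0.312, edgeR) and in *hcm1-8E* 0.17 (SE 0.45, adjusted p = 0.791, edgeR). The difference of its response in *hcm1-3N* from that in WT was 0.69 (SE 0.57) and from that in *hcm1-8E* 1.12 (SE 0.57), given without a test because *LDS1* was chosen on the strains, and without the libraries numbered 1 these were 0.38 and 0.54. The call in *hcm1-3N* rested on few counts: with edgeR it was lost without any 1 of the 3 control libraries (1.03, 1.42 and 1.48 without replicates 1, 2 and 3, adjusted p = 0.0776, 0.0830 and 0.0609) and without LiCl replicate 1 (1.26, adjusted p = 0.0849) or 3 (1.13, adjusted p = 0.0520), and it remained without all libraries numbered 1 (0.99, adjusted p = 0.0385). Its neighbour *FUN30*, a chromatin remodeller gene whose end lies 249 bases from that of *LDS1* on the opposite strand, rose in LiCl by 1.29, 1.12 and 1.23 on the log2 scale in WT, *hcm1-3N* and *hcm1-8E* (adjusted p = 0.00797, 0.0410 and 0.0111, edgeR), and its part in the *LDS1* counts was not tested.

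*DIT1* rose in LiCl in WT, by 0.38 on the log2 scale (SE 0.11, adjusted p = 0.0144, edgeR), from 9.96 ± 0.723 to 12.9 ± 0.776 CPM. In *hcm1-3N* the media did not overlap either, at 11.1 ± 0.339 and 13.4 ± 1.21 CPM, but the log2 fold change of 0.28 (SE 0.10) missed the threshold (adjusted p = 0.0937, edgeR). With the replicate block the adjusted p was 0.0509, and without the libraries numbered 1 it was 0.0564 (edgeR). The response in *hcm1-3N* minus that in WT was -0.10 (SE 0.15, adjusted p = 0.893, edgeR). In *hcm1-8E* the log2 fold change was 0.11 (SE 0.11, adjusted p = 0.451, edgeR), from 9.59 ± 1.10 to 10.4 ± 0.393 CPM. With edgeR the WT call was lost without control replicate 2 (0.31, adjusted p = 0.0871), control replicate 3 (0.36, adjusted p = 0.0528) or LiCl replicate 1 (0.30, adjusted p = 0.0797).

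The remaining genes did not pass the test in LiCl in any strain. *CDA1* had log2 fold changes of 0.11, 0.09 and -0.03 in WT, *hcm1-3N* and *hcm1-8E*, with SE from 0.15 to 0.16, so that its differences between strains stood beside a small difference between media. *DIT2* had 0.35, -0.03 and 0.34, *SPS4* 0.15, 0.55 and 0.32, *SPR3* 0.51, 0.23 and -0.07, and *SPS100* 0.52, -0.05 and -0.11, with SE from 0.22 to 0.40. In WT, *SPR3* (0.78, adjusted p = 0.0126, edgeR) and *SPS100* (0.64, adjusted p = 0.0114, edgeR) passed once all libraries numbered 1 were left out, an alternative chosen after seeing the data. *DPA10*, the gene between *CDA1* and *CDA2*, rose in LiCl in all 3 strains, by 1.45, 1.30 and 1.13 (adjusted p = 0.0104, 0.0468 and 0.0455, edgeR).

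**Figure D3:**
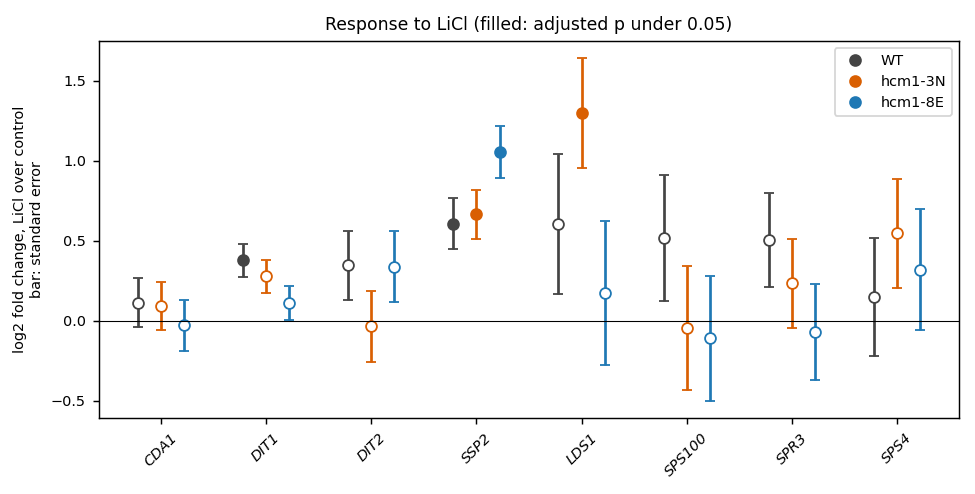
Fitted log2 fold change of LiCl over control (vertical axis) for the 8 genes that passed the filter, in WT, *hcm1-3N* and *hcm1-8E*. Points are estimates, bars standard errors, and filled points have an adjusted p under 0.05. *SSP2* is filled in all 3 strains, at 0.61, 0.66 and 1.05, *DIT1* in WT and *LDS1* in *hcm1-3N*.

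In counts, 2 of the 8 genes rose and none fell in WT, where 30.4% of all tested genes passed the test and 16.5% rose. In *hcm1-3N* 2 of 8 rose, against 10.3% of all genes passing and 5.16% rising, and in *hcm1-8E* 1 of 8 rose, against 29.5% and 17.1%. With the replicate number as a block, 2, 2 and 1 of the 8 passed in WT, *hcm1-3N* and *hcm1-8E*. The shares of all genes passing were then 49%, 38.1% and 48.1%, so the calls in *hcm1-3N* exceed the share of all genes only without the block. These calls were of *DIT1*, *SSP2* and *LDS1*, and the last 2 of these were chosen on libraries that the tests share. *DIT1* was listed with earlier results of these data known. The median log2 fold change of the 8 genes was 0.44, 0.26 and 0.14, against 0.02, 0.01 and 0.03 over all genes tested. Whether the response differed between strains was tested for *DIT1*, *DIT2*, *SPS100*, *SPR3* and *SPS4*. None of these 5 passed edgeR's test in any of the 3 pairings of strains (0% of all tested genes did), with the smallest unadjusted p at 0.0948 for *DIT1* in *hcm1-8E* against WT, and DESeq2 also called 0 of them.

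Other genes of sporulation were taken from lists by role, 89 of them in the table and 83 tested. With the replicate number as a block, 27, 25 and 32 passed in LiCl in WT, *hcm1-3N* and *hcm1-8E*, against 49%, 38.1% and 48.1% of all genes. Without the block 14 rose and 4 fell in WT, 6 rose and 3 fell in *hcm1-3N*, and 14 rose and 8 fell in *hcm1-8E*. Those that rose in all 3 strains included *SPO21*, a component of the spindle pole plaque from which the prospore membrane grows (log2 fold changes of 1.28, 1.45 and 1.38), and *NRG2*, a repressor (1.38, 1.30 and 0.78). *SPO75* (1.41) and *LDS2* (1.29), a relative of *LDS1*, rose in WT, *MND1*, a gene of meiotic recombination, in *hcm1-3N* (1.36) and *hcm1-8E* (1.21), and *SPO20*, a SNARE of the prospore membrane, in *hcm1-8E* (1.13). Those that fell included the early meiotic genes *MSH5* in all 3 strains (-1.14, -0.75 and -0.64), *SPO11* in WT (-0.68), *IME2* in *hcm1-3N* (-0.69), and *HOP1* (-0.97) and *IME1* (-0.84) in *hcm1-8E*. *SPR6* fell as well in WT (-0.93) and *hcm1-3N* (-0.52), and *IRC10* in *hcm1-8E* (-0.83).

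By role, 7 of 32 tested spore wall genes rose and 1 fell in WT, 2 rose and 1 fell in *hcm1-3N*, and 5 rose and 2 fell in *hcm1-8E*. Of 16 prospore membrane genes 4, 1 and 4 rose and 0, 0 and 1 fell. Of 22 early meiotic genes 0, 2 and 2 rose and 2, 2 and 5 fell, and of 13 regulators 3, 1 and 3 rose and 1, 0 and 0 fell. Over all tested genes 16.5%, 5.16% and 17.1% rose in WT, *hcm1-3N* and *hcm1-8E*, and 13.9%, 5.18% and 12.5% fell.

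Between strains few of the 83 genes passed edgeR's test. In control medium *TUP1*, a corepressor gene (0.65), and *LOH1*, a gene of the outer spore wall (0.93), were higher in *hcm1-3N* than in WT, and *MSH5* (-0.85), *SPO22* (-0.53) and *UME6*, a regulator of early meiotic genes (-0.41), were lower, 5 in all against 7.68% of all genes (16 with the replicate block, against 22.5%). In LiCl *SPO11* was higher (0.83) and *SPO20* lower (-1.06) in *hcm1-3N* than in WT, 2 in all against 0.721% of all genes (4 with the block, against 3.05%). Against *hcm1-8E* in LiCl, *LOH1* (1.18), *SPO11* (0.98) and *NRG2* (0.97) were higher in *hcm1-3N*, 3 in all against 3.06% of all genes (16 with the block, against 8.49%). None passed for *hcm1-8E* against WT in control medium (0.0641% of all genes), for *hcm1-3N* against *hcm1-8E* in control medium (0.0641%) or for *hcm1-8E* against WT in LiCl (0.0321%). In these 3 pairings 10, 14 and 11 had an unadjusted p under 0.05 in edgeR (12.5%, 12.8% and 5.05% of all genes). With the block 2, 7 and 2 passed (1.59%, 3.73% and 0.305% of all genes), and DESeq2 called 3, 2 and 1. In the 3 comparisons of LiCl responses 0 of the 83 passed edgeR's test (0% of all genes). There 9, 9 and 7 had an unadjusted p under 0.05 in edgeR (11.3%, 10.3% and 8.99% of all genes). DESeq2 called 2, 0 and 1, and its shares of all genes are not given here.

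Over the *hcm1-3N* and WT libraries, the median log2 fold change in control medium was 0.03 for the other spore wall genes, 0.08 for prospore membrane genes, 0.10 for early meiotic genes and 0.02 for regulators. In LiCl it was 0.04, 0.03, 0.03 and -0.04. The 8 chosen genes, with the 3 that led to the list among them, had medians of 0.63 and 0.67, and without those 3 the medians were 0.52 and 0.05.

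**Figure D4:**
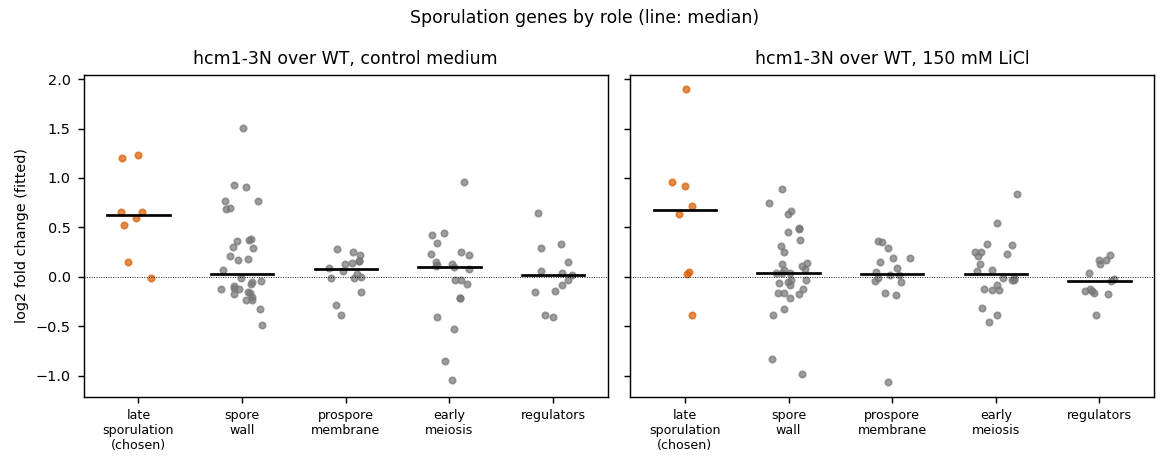
Fitted log2 fold change of *hcm1-3N* over WT for the tested sporulation genes by role, in control medium (left) and in LiCl (right). Each point is a gene and lines are medians. The chosen late sporulation genes have medians of 0.63 and 0.67 with *CDA1*, *SSP2* and *LDS1*, for which the list was drawn up, and of 0.52 and 0.05 without them, and the medians of the other roles lie between -0.04 and 0.10.

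The genes whose log2 CPM ran most like that of a member over the 18 libraries, which share strains and media, are given as a description. For *CDA1* they were *YFR057W* (Pearson r = 0.88), the histone gene *HTA2* (0.85) and *SPR3* (0.83). For *LDS1* they were the alpha-factor gene *MF(ALPHA)1* (0.91), *YBL113W-A* (0.88) and *YBL109W* (0.86), and for *SSP2* *MIC19* (0.92), *YIL014C-A* (0.90) and *GNA1* (0.90). *MF(ALPHA)1*, a *MATalpha* gene, stood like *LDS1* highest in *hcm1-3N* in LiCl, at 20.7 ± 3.44 CPM against 4.79 ± 0.807 in WT and 1.88 ± 0.950 in *hcm1-8E*. In control medium it was at 5.49 ± 2.78 CPM in *hcm1-3N*, 1.54 ± 0.220 in WT and 1.26 ± 0.439 in *hcm1-8E*. For *SPR3* the nearest were *YER158C* (0.87), *PDR11* (0.86) and *HTA2* (0.86), for *SPS4* *BOI2* (0.80), *YFR057W* (0.80) and *YPR027C* (0.78), and for *DIT1* *UGA4* (0.89), *TMA7* (0.87) and *YBL109W* (0.85). *SPS100* ran with *UBX6* (0.95), *COS8* (0.94) and *YFT2* (0.93), and *DIT2* with *SBH2* (0.77), *YCR007C* (0.75) and *GRX6* (0.75).

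Within groups, after removal of the group means, these likenesses mostly shrank. The r of *CDA1* with *SPR3* went from 0.83 to 0.01 and that of *LDS1* with *MF(ALPHA)1* from 0.91 to 0.51, whereas that of *SPS100* with *UBX6* was 0.95 and 0.97. Among *CDA1*, *SSP2*, *LDS1* and *SPR3* the 6 pairs had r from 0.60 to 0.83 over the libraries and from -0.28 to 0.19 within groups. The genes next to the members on the chromosome, 14 in the table and 12 tested, had log2 fold changes of *hcm1-3N* over WT from -0.42 to 0.44 in control medium. There *IMH1* (0.44), *RPB7* (0.30) and *MET7* (-0.42) passed edgeR's test, against 7.68% of all genes. In LiCl the range was from -0.27 to 0.09. For LiCl over control 6, 3 and 5 of the 12 passed in WT, *hcm1-3N* and *hcm1-8E*, against 30.4%, 10.3% and 29.5% of all genes.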

How the data were processed

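Members and lists were chosen with earlier results of these data known. Groups and replicate numbers follow the sample labels. The authors aligned paired-end reads to genome build R64 and used featureCounts to count, for each gene, exon fragments whose mapping quality exceeded 20. These deposited counts are raw whole numbers. The deposited TPM of the authors correct the counts for gene length and library total in 6754 genes. The strand setting of the counting is not given in the sources used here. No other per-sample column was left out.

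Counts were fitted in one model of 6 group means with edgeR 4.0.16 (R 4.3.3), over all 18 libraries, using TMM, filterByExpr (minimum count 10) and the robust quasi-likelihood test, with Benjamini-Hochberg adjustment over 6239 genes at a threshold of 0.05. Log2 CPM used a prior count of 2. The floor of detection was set at 3 counts, which covers counting error only. Deviations from the group means correlated between same-numbered libraries of the groups compared, from 0.24 to 0.89 over all pairs, so the replicate numbers were taken as pairs on the strength of the data, and a fit with a replicate block was an alternative. Other alternatives were DESeq2 1.42.0, other size factors, no filter, the non-robust test, the TPM, and leaving out each library or all numbered 1, the last chosen after seeing the data. The code was tested on simulated data for LiCl against control in WT. There edgeR called 37 of 100 genes with a true absolute log2 fold change of 0.5, and 92 of 100 with 1. The simulated spread was the same for every gene, so these shares need not hold for the genes described here. Copies were searched with blastn 2.17.0 and coding sequences aligned with Biopython 1.88. Of the genes in the table, 6048 matched RefSeq locus tags. Named genes were all 9 members, the 2 neighbours of each, up to 3 other sporulation genes in each direction per comparison among those past the threshold, and the 3 genes most correlated with each member.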

Additional observations from a re-analysis of the deposited data

How the results depend on the processing

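The 5 calls in LiCl held under each of 5 other fits, with adjusted p from edgeR or DESeq2 of 0.00803 to 0.0341 for *DIT1* in WT, 0.00909 to 0.0427 for *SSP2* in WT, 0.00396 to 0.0222 for *SSP2* and 0.00407 to 0.0336 for *LDS1* in *hcm1-3N*, and 0.000226 to 0.00085 for *SSP2* in *hcm1-8E*. Leaving out 1 library gave 0 to 2 of the 8 genes called in WT, 0 to 1 in *hcm1-3N* and 1 in *hcm1-8E*, with fewer samples in each such fit. The replicate block changed no call of the 8 genes tested. *CDA2*, at 0 to 7 counts a library, could be fitted only without the filter, and *LDS1* had 5 to 54 counts.

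Some log2 fold changes changed sign (the cause was not tested). Without the libraries numbered 1, LiCl over control went to 0.04 for *DIT2* and 0.17 for *SPS100* in *hcm1-3N*, and to 0.03 for *CDA1*, 0.15 for *SPR3* and -0.33 for *SPS4* in *hcm1-8E*, and the response in *hcm1-8E* minus that in WT went to 0.24 for *DIT2* and -0.34 for *SPS4*. It was 0.017 for *DIT2* without a filter, and the response of *SPS100* in *hcm1-3N* minus that in *hcm1-8E* was -0.023 with the replicate block. Leaving out 1 library gave -0.077 to 0.24 for *SPS4* in WT, -0.18 to 0.12 for *DIT2* and -0.45 to 0.27 for *SPS100* in *hcm1-3N*, and in *hcm1-8E* -0.19 to 0.076 for *CDA1*, -0.067 to 0.58 for *LDS1*, -0.30 to 0.072 for *SPS100*, -0.48 to 0.10 for *SPR3* and -0.33 to 0.61 for *SPS4*. For the differences of response it gave -0.14 to 0.19 for *DIT2* and -0.45 to 0.46 for *SPS4* in *hcm1-8E* minus WT, and -0.34 to 0.39 for *SPS100* and -0.066 to 0.87 for *SPS4* in *hcm1-3N* minus *hcm1-8E*.

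The counts of other sporulation genes depended on the fit (the cause was not tested). With the replicate block the share of all genes passing in LiCl rose as well. It went from 30.4%, 10.3% and 29.5% to 49%, 38.1% and 48.1% in WT, *hcm1-3N* and *hcm1-8E*. Shares of all genes with DESeq2 or with libraries left out are not given here. The counts from those fits therefore do not show a change particular to sporulation genes. For LiCl the 18, 9 and 22 genes in WT, *hcm1-3N* and *hcm1-8E* became 28, 16 and 35 without the libraries numbered 1. They became 27, 25 and 32 with the replicate block, and 14 to 16, 5 to 14 and 14 to 20 without 1 library. For *hcm1-3N* against WT in control medium the 5 genes became 16 with the block, 9 without the libraries numbered 1 and 3 to 4 without 1 library, and in LiCl the 2 became 4 with the block, 4 with DESeq2 and 0 to 2 without 1 library. For *hcm1-8E* against WT the 0 in control medium became 3 with DESeq2 and 2 with the block, and the 0 in LiCl became 1 and 2 in these fits and 6 without the libraries numbered 1. For *hcm1-3N* against *hcm1-8E* DESeq2, the block and the fit without the libraries numbered 1 gave 2, 7 and 9 without salt and 8, 16 and 18 with LiCl. For the differences of response they gave 2, 1 and 1 in *hcm1-3N* minus WT and 1, 1 and 6 in *hcm1-3N* minus *hcm1-8E*, and 4 without the libraries numbered 1 in *hcm1-8E* minus WT.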
